A study of Mus musculus with 6 samples.

Results

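The mitochondrial ribosome makes the few proteins that the mitochondrial genome encodes, all of them subunits of the oxidative phosphorylation machinery. Its ribosomal RNAs come from the mitochondrial genome, while every one of its proteins is encoded in the nucleus, translated in the cytosol and imported. Many of these proteins have counterparts in the bacterial ribosome, and the others were added during the evolution of mitochondria. Genes for the large subunit, which holds the peptidyl transferase centre, are named Mrpl, and genes for the small subunit, which binds the messenger RNA and decodes it, are named Mrps. Their transcripts were followed here in B cell progenitors of old and young mice.

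A gene was included when its symbol starts with Mrpl or Mrps followed by a digit and the platform's annotation gives it a probe set of its own. That gave 77 genes, 48 of the large and 29 of the small subunit, of 19938 genes measured in that way. They are measured by 85 probe sets, and the brightest probe set stands for each of the 8 genes that have more than 1. Genes were chosen by name, but the brightest probe set was chosen by its mean level over all arrays, a measured value. Mrpl53 was left out because its probe set is shared with Ccdc142.

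The old group was 3 arrays of BALB/c mice aged 24 months and the young group 3 arrays of BALB/c mice aged 2 months. BALB/c is an inbred laboratory strain, and the labels give no genotype or treatment beyond it. All 6 arrays hold RNA of pre-B and pro-B cells sorted as a single population, stages around rearrangement of the heavy chain gene, and the cells were not manipulated after sorting. Each array started from 100 ng of total RNA, which was amplified before hybridisation. The labels name the samples by mouse but do not say whether an array holds RNA of 1 animal or of a pool. If they are not separate animals, p-values measure only the spread between these samples. All levels below are log2 of the deposited intensity, and all differences are old minus young on that scale. In such a mixture, fewer cells of a type and less RNA per cell cannot be told apart.

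The old arrays did not form 1 group. A background level was taken on each array from receptors for odours and pheromones (Olfr and Vmn genes, 1375 probe sets) as their 95th percentile, and is called the receptor level here. It was 6.30 on old replicate 1 and 6.41 on old replicate 2, against 5.18 on old replicate 3 and 4.60 to 4.84 on the young arrays. Old replicates 1 and 2 had 3398 and 3060 probe sets above it, against 10686 on old replicate 3 and 11956 to 13021 on the young arrays. Their interquartile ranges of 1.52 and 1.51 were also narrower than the 2.44 of old replicate 3 and the 2.72 to 2.89 of the young arrays. Each result is therefore also given by old array. The 11 B progenitor markers measured were all above the receptor level on every young array, 10 on old replicate 3, and 5 and 4 on old replicates 1 and 2. Their summed intensity was 8316 to 8849 on the young arrays and 3014, 4600 and 7415 on old replicates 1, 2 and 3. Of these 11, 9 had a lower old mean, and Vpreb1 (0.22) and Vpreb2 (0.64) a higher one. Vpreb1 read 11.13, 11.69 and 10.82 on the old and 11.15, 10.76 and 11.07 on the young arrays. It was the brightest of them on every array and weighs most in these sums. All 9 neutrophil markers were above the receptor level on the young arrays and on old replicate 3, and 3 were on each of old replicates 1 and 2. Their summed intensity was 7989 to 10188 on the young arrays and 2051, 4798 and 8505 on old replicates 1, 2 and 3. Erythroid markers (5 of 6 measured) summed to 208 to 341 on the young and 232 to 352 on the old arrays. T cell markers (4 of 5) summed to 91.9 to 127 and 122 to 177, and the 4 plasma cell markers to 170 to 191 and 146 to 202. The 4 monocyte and macrophage markers summed to 457 to 992 on the young arrays and 116 to 340 on the old. Of these, only Lyz2 had a lower old mean (-3.24), and Csf1r, Cd14 and Adgre1 had higher old means (0.22, 0.59 and 0.59). What part neutrophil or other cells have in the values below was not tested.

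Most mitochondrial ribosomal protein genes had lower values on the old arrays, and the size of the difference depended on the old array. The mean of the old arrays was below that of the young arrays for 70 of 77 members and above it for 7. The median difference over the members was -0.94, with -0.97 for the large subunit (range -2.40 to 0.10) and -0.82 for the small subunit (range -3.45 to 1.19). Over all genes the median difference was 0.37. After centring each array on its median the subunit medians were -1.32 and -1.17 against 0.02 over all genes, and after quantile normalization -0.55 and -0.55 against 0.05. The lower values of both subunits relative to all genes therefore did not rest on 1 scaling. Genes with strong signal were lower as a whole, however. Over the 3668 genes with a young mean above 7 the median difference was -1.72, against -1.23 for the 40 members with such a mean. The 37 members with a young mean of 7 or below had a median of -0.61.

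No member passed the test of 3 old against 3 young arrays. With limma's moderated test and the Benjamini-Hochberg adjustment, 0 of 77 had an adjusted p under 0.05, as was so for 0% of the 23410 probe sets tested, and the smallest adjusted p was 0.101. At an unadjusted p under 0.05 by limma, 45 members were lower and 1 was higher. Of all probe sets, 21.9% were lower and 24.9% higher by that measure. Of the 40 members with a young mean above 7, 27 were lower, against 2877 of the 3668 genes with such a mean. With array weights estimated by limma, 63 members were called, a share no larger than the 85.4% of all probe sets called in that fit. The median standard deviation over members was 0.09 among the young arrays and 0.53 among the old arrays, so the spread of the old arrays dominated the error.

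The order of the arrays was also counted, without a model. All 3 old arrays lay below all 3 young arrays for 47 members (61.0%), 29 of the large and 18 of the small subunit, against 22.9% of all probe sets. Among probe sets with a young mean above 7 the share was 65.7%, and 27 of the 40 members with such a mean were in that position. All 3 old arrays lay above all 3 young arrays for 3 members, Mrps6, Mrps10 and Mrps24, against 36.1% of all probe sets. Among members of strong signal, the share below the young arrays is thus near that of all probe sets of strong signal.

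**Figure D1:**
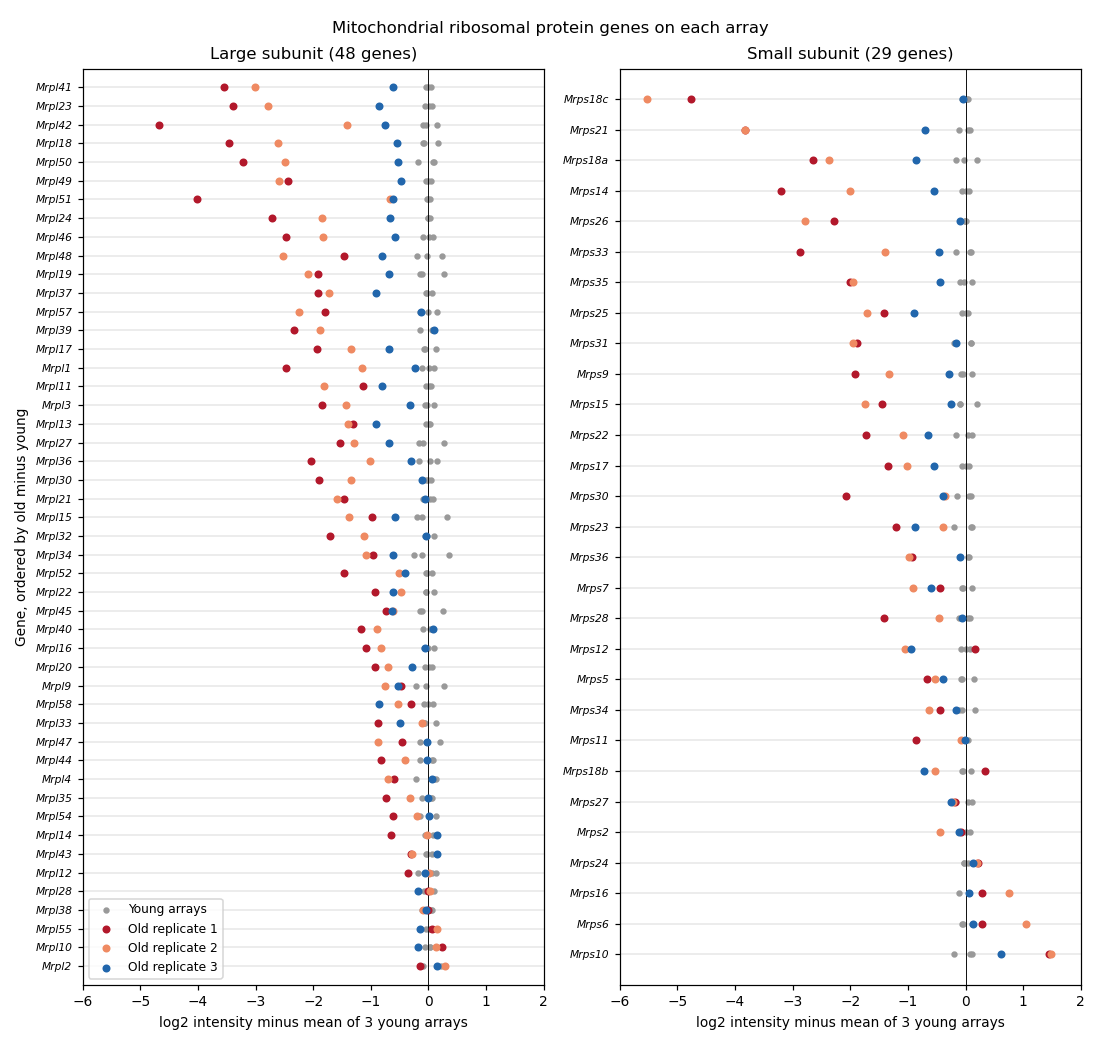
Log2 intensity minus the mean of the 3 young arrays (horizontal axis) for each of 48 large subunit genes (left) and 29 small subunit genes (right), ordered by the old minus young difference. Grey points are the young arrays and coloured points the 3 old arrays. Old replicates 1 and 2 reach -4.77 and -5.53, while old replicate 3 stays between -0.95 and 0.62.

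Old replicates 1 and 2 carried most of the difference in means. The median member was -1.30 from the young mean on old replicate 1, -1.01 on old replicate 2 and -0.32 on old replicate 3. Over all genes these medians were 0.51, 0.46 and 0.04. On old replicate 1, 43 members were more than 1 below the young mean, against 24.5% of all probe sets. Of the 40 members with a young mean above 7, 31 (77.5%) were, against 89.1% of probe sets with such a mean. On old replicate 2, 39 members were more than 1 below, against 23.2% of all probe sets, and 25 of 40 (62.5%) against 84.3% of those with a young mean above 7. On both arrays the median of the members above 7 was nearer 0 than that of all genes above 7, with -1.85 against -2.51 and -1.40 against -2.29. The 2 sets were not matched in signal, with median young means of 7.61 for these members and 7.95 for these genes.

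**Figure D2:**
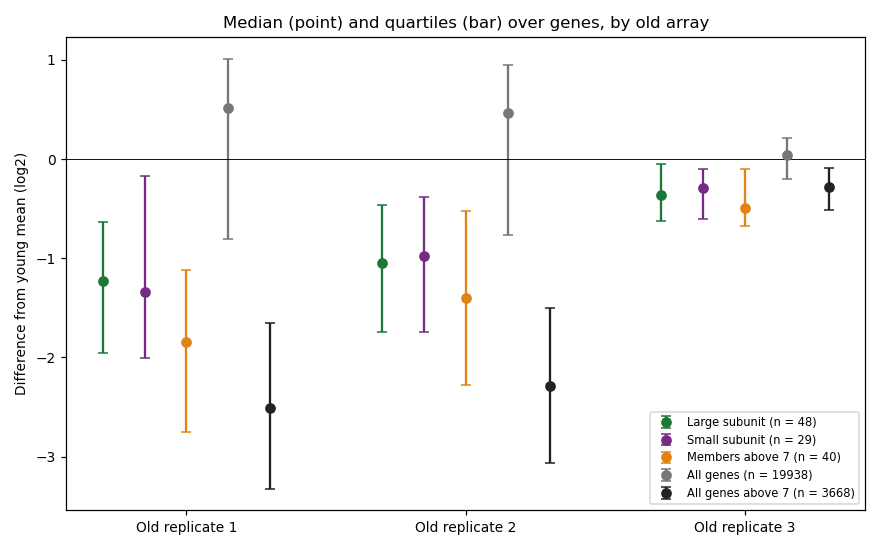
Median (point) and quartiles (bar) of the log2 difference from the young mean on each old array, for large and small subunit genes, members with a young mean above 7, all genes, and all genes with a young mean above 7. On old replicates 1 and 2 the members lie between all genes and all genes of strong signal, and on old replicate 3 the members above 7 have a median of -0.49 against -0.29 for all genes above 7.

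Much of what old replicates 1 and 2 report for this family is a bound. Only 20 members were above the receptor level on old replicate 1 and 24 on old replicate 2, against 72 on old replicate 3 and 76 on each young array. On both old replicates 1 and 2, 47 members lay within it. Mrps27, which encodes a protein with pentatricopeptide repeats lay within it on all 6 arrays. Its values were 3.41, 3.36 and 3.33 on the old arrays and 3.42, 3.70 and 3.63 on the young arrays. Mrpl22, Mrpl38, Mrpl45 and Mrps23 were within it on all 3 old arrays. Without old replicate 3, limma called 58 members lower and 3 higher at an adjusted p under 0.05, against 30.2% and 52.2% of all probe sets. Of the 40 members with a young mean above 7 it called 34 lower, against 3487 of the 3668 genes with such a mean. Of those 58, 42 were within the receptor level on both old arrays of that fit, 11 on 1 of them and 5 on neither. The 3 higher members were Mrps6, Mrps10 and Mrps16.

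Old replicate 3, whose signal resembled that of the young arrays most, gave small differences, of which 66 of 77 were negative. It lay below all 3 young arrays for 53 members (68.8%), against 31.8% of all probe sets, and above all 3 for 7 (9.09%), against 41.7%. Among probe sets with a young mean above 7 the share below was 67.1%, and 30 of the 40 members with such a mean were below. The largest difference was -0.95. With old replicate 3 as the only old array, and its spread assumed to be that of the young arrays, limma called 23 members lower at an adjusted p under 0.05 and 0 higher. By the same fit 5.24% of all probe sets were called lower and 1.76% higher. Of the 40 members with a young mean above 7, 16 (40%) were called lower, against 14.1% of probe sets with such a mean. This fit compares 1 old array with 3 young arrays and holds no spread among old samples. The 23 were 13 large subunit genes, Mrpl11, Mrpl13, Mrpl17, Mrpl22, Mrpl23, Mrpl24, Mrpl37, Mrpl41, Mrpl42, Mrpl46, Mrpl48, Mrpl51 and Mrpl58, and 10 small subunit genes, Mrps7, Mrps12, Mrps14, Mrps17, Mrps18a, Mrps18b, Mrps21, Mrps22, Mrps23 and Mrps25. They fell by 0.55 to 0.95 on the log2 scale, and 21 of them were above the receptor level on old replicate 3. Most of these genes were called lower without old replicate 3 too, in a fit that shares the young arrays with this one. That fit called 58 of all 77 members (75.3%) lower, against 30.2% of all probe sets, and the overlap was not tested. At a young mean above 7 it called 34 of 40 members and 3487 of 3668 genes lower.

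Among the large subunit genes, Mrpl13, a counterpart of a bacterial protein of the early assembling core, had the smallest p. It read 5.93, 5.83 and 6.33 on old replicates 1, 2 and 3 and 7.24, 7.19 and 7.25 on the young arrays. Every old value was below every young value. The difference was -1.20 ± 0.22 (SE, 3 old and 3 young arrays), a 2.30-fold lower mean, with an adjusted p of 0.101 by limma. Old replicates 1 and 2 were within the receptor level, and with those values raised to it the difference is -0.88. With old replicate 3 alone, Mrpl13 fell by 0.90 (limma adjusted p 0.015).

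Mrpl37, a protein of the large subunit that bacteria lack, read 5.39, 5.58 and 6.40 on the old and 7.28, 7.36 and 7.27 on the young arrays. The groups did not overlap, and old replicate 3 was again nearest to the young arrays. The difference was -1.51 ± 0.30, or -0.93 with old replicates 1 and 2 raised to the receptor level. Mrpl11, which forms with ribosomal RNA the site where translation factors bind, read 6.52, 5.84 and 6.85 against 7.69, 7.61 and 7.66. It differed by -1.25 ± 0.29, and old replicate 3 was low as well, with a fall of 0.81 (limma adjusted p 0.018). Mrpl3, whose bacterial counterpart reaches towards the peptidyl transferase centre, read 4.90, 5.32 and 6.44 against 6.70, 6.72 and 6.84 (-1.20 ± 0.40), or -0.37 with old replicates 1 and 2 raised to the receptor level.

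The large subunit genes with the most negative differences in means were split among the old arrays. Mrpl41, specific to mitochondria, read 5.52, 6.06 and 8.45 on the old arrays and 9.04, 9.07 and 9.11 on the young arrays (-2.40 ± 0.72). Its other probe set gave 6.46, 6.57 and 6.32 against 6.60, 6.69 and 6.67, a difference of -0.20. The pair of probe sets therefore differed widely in size though not in sign. Mrpl23, whose bacterial counterpart sits at the exit of the peptide tunnel, read 5.12, 5.73 and 7.65 against 8.51, 8.45 and 8.57 (-2.34 ± 0.61), and its other probe set gave -2.32. Mrpl42 read 4.34, 7.60 and 8.26 against 8.91, 8.97 and 9.15 (-2.28 ± 0.95). Its lowest old array lay 4.67 below the young mean, and the 3 old arrays spanned most of that distance.

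Mrpl51 showed a similar split on its brighter probe set, with 4.99, 8.34 and 8.39 on the old arrays against 8.98, 9.03 and 8.99 on the young arrays (-1.76 ± 0.88). On its other probe set all old arrays were low, with 5.40, 4.30 and 5.33 against 7.22, 7.07 and 7.12 (-2.13 ± 0.33). There, old replicate 3 was -1.81 from the young mean, against -0.61 on the brighter probe set. Of the 8 members with a pair of probe sets, 7 were below the young mean on all 3 old arrays by both of them. The exception was Mrpl47, where 1 probe set was 0.21 above the young mean on old replicate 1. Pseudogene copies are annotated for Mrpl23, Mrpl27, Mrpl48 and Mrps36, so their values can include signal of a copy and are uncertain. Whether probe sets of other members, such as the differing pairs of Mrpl41 and Mrpl51, take up signal of a copy was not tested.

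Several large subunit genes had old values close to or among the young values. Mrpl10 and Mrpl12 form the stalk that recruits translation factors, Mrpl10 as its base and Mrpl12 as its mobile arms. Mrpl10 read 7.65, 7.54 and 7.24 on the old and 7.36, 7.44 and 7.45 on the young arrays (0.06 ± 0.21). Mrpl12 read 6.43, 6.78 and 6.72 against 6.83, 6.59 and 6.90 (-0.13 ± 0.22), and both groups overlapped for each gene. Mrpl28, with 7.08, 7.12 and 6.91 against 7.07, 7.19 and 7.03 (-0.06 ± 0.20), and Mrpl55, with 7.25, 7.33 and 7.04 against 7.15, 7.21 and 7.21 (0.02 ± 0.20), had overlapping groups as well. Mrpl2, a counterpart of a core protein next to the peptidyl transferase centre, read 6.53, 6.96 and 6.82 against 6.53, 6.58 and 6.90 (0.10 ± 0.23). These small differences change sign with the scaling: centred arrays gave -0.28 for Mrpl10, -0.33 for Mrpl55 and -0.25 for Mrpl2, and quantile normalization gave 0.63 for Mrpl12 and 0.91 for Mrpl28. Mrpl14 read 6.28, 6.89 and 7.08 against 6.91, 6.86 and 7.01 (-0.18 ± 0.27). Mrpl44, a protein related to a double-stranded RNA nuclease, read 5.78, 6.20 and 6.57 against 6.46, 6.68 and 6.67 (-0.42 ± 0.26), or -0.18 with values raised to the receptor level. For both genes the sign also turned under quantile normalization, to 0.58 and 0.02.

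Among the small subunit genes, the 3 homologues of bacterial protein S18 showed 3 patterns. Mrps18a read 5.27, 5.54 and 7.06 on the old and 7.88, 7.76 and 8.11 on the young arrays (-1.96 ± 0.47). Every old array was low, and with old replicate 3 alone it fell by 0.85 (limma adjusted p 0.030). Mrps18b read 7.11, 6.25 and 6.06 against 6.74, 6.73 and 6.88 (-0.31 ± 0.31, or 0.50 after quantile normalization). Here old replicate 1 was the highest of all 6 arrays and old replicate 3 the lowest. Mrps18c read 5.28, 4.52 and 10.01 against 9.99, 10.07 and 10.10 (-3.45 ± 1.33). Old replicate 3 lay among the young values while old replicates 1 and 2 were within the receptor level, so the largest difference in means among the 77 members came from those 2 arrays. In structures of the mitochondrial ribosome Mrps18a and Mrps30 belong to the large subunit. Moving both there left a median difference of -0.97 for 50 large and -0.67 for 27 small subunit genes.

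Mrps25, a mitochondria-specific protein, had the smallest p of the small subunit. It read 4.94, 4.65 and 5.46 against 6.31, 6.37 and 6.40 (-1.34 ± 0.26), and with old replicate 3 alone it fell by 0.90. With values raised to the receptor level the difference is -0.30. Its young mean of 6.36 is below that level on old replicate 2 (6.41) and close to it on old replicate 1 (6.30). The raised values can therefore show little or no fall on these arrays. Mrps12, the decoding centre protein, read 7.03, 5.82 and 5.91 against 6.88, 6.94 and 6.78 (-0.61 ± 0.35, or 0.08 after quantile normalization). Its old replicate 1 was the highest array, while old replicate 3 gave the lowest difference of any member, a fall of 0.95 (limma adjusted p 0.015). Mrps21, a counterpart of a small bacterial protein of the same subunit, read 5.41, 5.40 and 8.54 against 9.12, 9.28 and 9.31 (-2.79 ± 0.82). Mrps33, with 6.27, 7.74 and 8.69 against 8.97, 9.24 and 9.22 (-1.58 ± 0.58), likewise had old replicate 3 nearest to the young arrays. Mrps30 read 5.20, 6.90 and 6.87 against 7.12, 7.32 and 7.35 (-0.94 ± 0.48), or -0.57 with old replicate 1 raised to the receptor level. Mrps34 read 5.41, 5.21 and 5.69 against 5.74, 5.79 and 6.02 (-0.41 ± 0.23). Mrps36, whose product is now known as a subunit of the oxoglutarate dehydrogenase complex, read 5.25, 5.21 and 6.09 against 6.09, 6.25 and 6.23 (-0.67 ± 0.29). For both Mrps34 and Mrps36 the old values of replicates 1 and 2 lay within the receptor level. That level (6.30 and 6.41 on these arrays) is above the young means of 5.85 and 6.19. Values raised to it therefore lie above the young mean by construction. The raised differences of 0.28 and 0.08 cannot tell a fall on these arrays from none.

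Mrps10 stood at the other end. It encodes the counterpart of bacterial protein S10, part of the head of the small subunit, and read 7.37, 7.40 and 6.54 on the old and 5.995, 6.03 and 5.72 on the young arrays. All old values were above all young values, and all 6 were above the receptor level. The difference was 1.19 ± 0.30 (limma adjusted p 0.101), and old replicate 3 alone gave 0.62 (limma adjusted p 0.059). Mrps6 read 6.44, 7.21 and 6.28 against 6.10, 6.26 and 6.10 (0.49 ± 0.29). Mrps24, a counterpart of the protein at the messenger RNA entry site, read 8.05, 8.03 and 7.95 against 7.87, 7.81 and 7.80 (0.19 ± 0.19). Its groups did not overlap but lay close together, and after centring the difference was -0.16. Mrps16 read 7.58, 8.04 and 7.35 against 7.17, 7.35 and 7.35 (0.37 ± 0.25), with old replicate 3 within the young range.

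**Figure D3:**
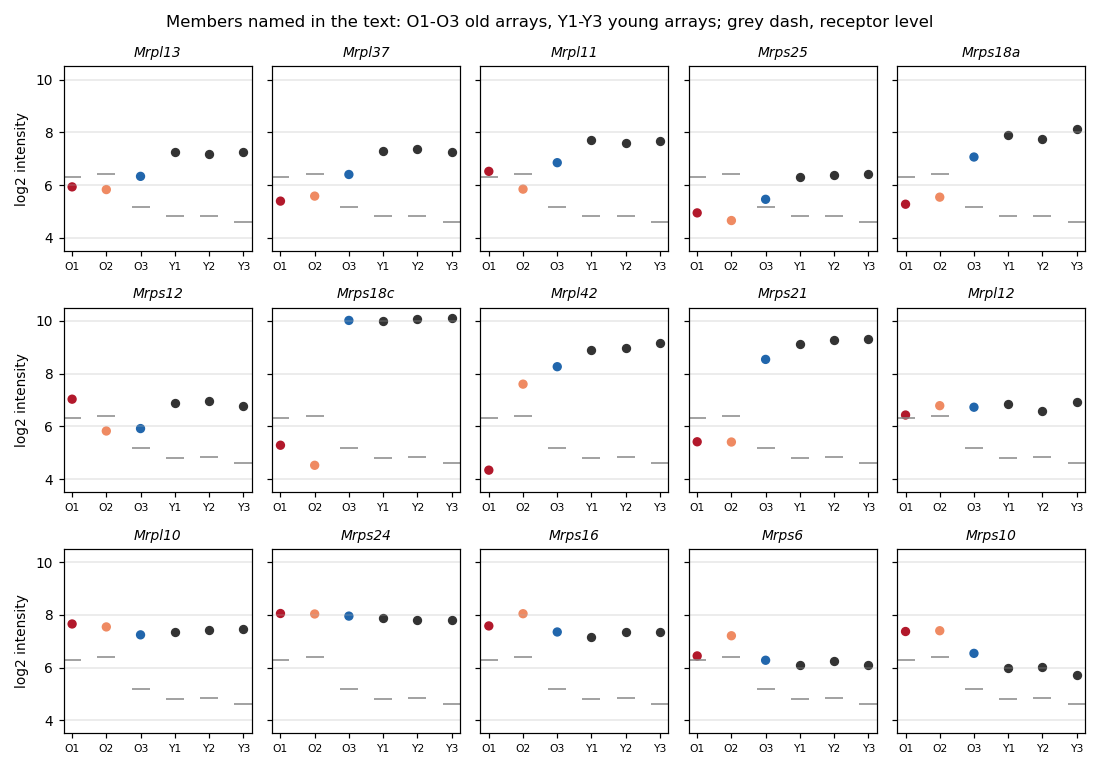
Log2 intensity of 15 members on the 3 old (O1 to O3) and 3 young (Y1 to Y3) arrays, with the receptor level of each array as a grey dash. Mrpl13, Mrpl37, Mrps25 and Mrps18a are low on every old array, Mrps18c is low on old replicates 1 and 2 only, and Mrps10 is high on every old array.

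The 14 members above the receptor level on all 6 arrays were the ones measured without a bound. Their median difference was -0.02, with 7 lower and 7 higher old means, against 0.25 for the 1477 genes in that position. Passing on every array favours genes that stayed high on the old arrays, so this median does not stand for the family. Mrpl39, a mitochondria-specific protein, was the lowest of the 14, with 6.62, 7.08 and 9.06 against 8.81, 9.02 and 9.05. Mrpl58, a peptidyl-tRNA hydrolase built into the large subunit, read 6.77, 6.55 and 6.22 against 7.07, 7.01 and 7.16 and was the member called lower with old replicate 3 alone. Both were chosen for mention after their values were seen.

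Members were also split by the current nomenclature of their proteins into those named after a bacterial counterpart and those named as specific to mitochondria. Mrps18a and Mrps18b, as additional homologues of S18, carry mitochondria-specific names and are counted there. The median was -1.34 over the 30 mitochondria-specific members, all with a lower old mean, and -0.66 over the 46 named after a bacterial counterpart, of which 39 had a lower and 7 a higher old mean. The order held on each old array, with -1.76 against -0.97 on old replicate 1, -1.24 against -0.96 on old replicate 2 and -0.47 against -0.27 on old replicate 3. It also held within the large subunit (-1.38 against -0.92) and the small subunit (-1.24 against -0.63). The median young mean was 7.13 for the first class and 6.97 for the second, and 3 and 17 members were above the receptor level on old replicate 1. The difference between the classes was not tested.

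**Figure D4:**
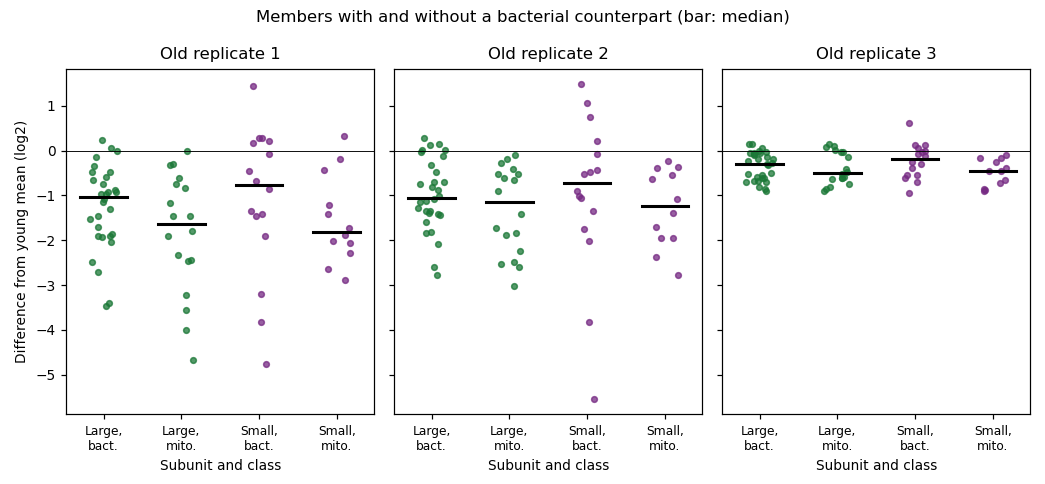
Log2 difference from the young mean for each member (points) and its median (bar) on the 3 old arrays, by subunit and by whether the protein is named after a bacterial counterpart (bact.) or as specific to mitochondria (mito.). On all 3 arrays the mitochondria-specific classes have the lower medians, and the ranges of the classes overlap.

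The members ranked alike on old replicates 1 and 2 and less so on old replicate 3. Across the 77 members, the differences on old replicates 1 and 2 correlated at a Pearson's r of 0.80 (Spearman's rho 0.82). With old replicate 3 they correlated at 0.40 (rho 0.39) and 0.43 (rho 0.49). Over all 19938 genes the Pearson values were 0.94, 0.60 and 0.61. These are descriptions across genes, which are not independent, and the differences share the young arrays. The young mean correlated with the difference at -0.69, -0.60 and -0.21 on old replicates 1, 2 and 3, so members of stronger signal were lower on old replicates 1 and 2, and at -0.82, -0.81 and -0.48 over all genes.

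Genes of mitochondrial ribosomal proteins are scattered over the genome, and promoters of such genes are known for sites of nuclear respiratory factor 1, ETS factors such as GA-binding protein, and YY1. RefSeq windows (GRCm38.p6) from 250 bases before to 50 bases after the start were found for 68 of the 77 members. Only Mrpl46 and Mrps11, on chromosome 7, were neighbours. The ETS motif CCGGAAG was in 25 windows (36.8%), against 9.93% of the windows of 27025 genes. The YY1 motif AAGATGGC was in 12 (17.6%), against 3.19%, and the NRF1 core GCGCATGC in 8 (11.8%), against 3.05%. The E-box CACGTG was in 5 (7.35%) against 8.09%, the TATA motif TATAAA in 5 (7.35%) against 15.7%, and CCAAT in 26 (38.2%) against 41.1%. Both strands were searched, and none of these motifs contains another. The windows of the members had a median GC content of 58%, against 52.75% for all genes. Of the first 3 motifs, 31 windows held none, 29 held 1 and 8 held 2. Those 8 belong to Mrpl17, Mrpl22, Mrpl32, Mrpl33, Mrps12, Mrps18a, Mrps18b and Mrps27.

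The windows of 5 members are shown because they hold different sets of these motifs. They include the most negative (Mrps18c) and the most positive (Mrps10) difference among the members. Capitals mark matches to the ETS, YY1 and NRF1 motifs on either strand. They are Mrps18c (chr5:100798509-100798808, plus strand, ETS), Mrps18a (chr17:46110754-46111053, plus strand, ETS and YY1), Mrpl37 (chr4:107066817-107067116, minus strand, YY1), Mrpl17 (chr7:105811038-105811337, minus strand, ETS and NRF1) and Mrps10 (chr17:47368947-47369246, plus strand, none).
Mrps18c: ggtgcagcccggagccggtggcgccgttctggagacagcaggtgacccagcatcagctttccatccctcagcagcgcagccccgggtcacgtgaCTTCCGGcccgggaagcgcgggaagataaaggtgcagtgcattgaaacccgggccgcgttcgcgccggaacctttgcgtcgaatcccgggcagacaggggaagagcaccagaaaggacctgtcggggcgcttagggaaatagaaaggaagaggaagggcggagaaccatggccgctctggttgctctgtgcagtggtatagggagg
Mrps18a: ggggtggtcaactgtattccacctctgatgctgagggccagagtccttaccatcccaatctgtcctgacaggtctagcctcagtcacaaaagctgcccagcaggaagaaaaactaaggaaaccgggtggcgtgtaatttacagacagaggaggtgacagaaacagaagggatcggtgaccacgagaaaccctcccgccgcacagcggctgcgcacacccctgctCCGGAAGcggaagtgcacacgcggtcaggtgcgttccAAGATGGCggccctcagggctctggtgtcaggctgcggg
Mrpl37: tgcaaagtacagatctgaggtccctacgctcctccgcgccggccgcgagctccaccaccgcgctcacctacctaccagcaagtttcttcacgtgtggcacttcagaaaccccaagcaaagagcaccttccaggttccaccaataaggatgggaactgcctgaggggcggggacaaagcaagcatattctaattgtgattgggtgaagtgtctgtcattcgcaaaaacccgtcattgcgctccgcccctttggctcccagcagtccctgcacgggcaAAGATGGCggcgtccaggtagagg
Mrpl17: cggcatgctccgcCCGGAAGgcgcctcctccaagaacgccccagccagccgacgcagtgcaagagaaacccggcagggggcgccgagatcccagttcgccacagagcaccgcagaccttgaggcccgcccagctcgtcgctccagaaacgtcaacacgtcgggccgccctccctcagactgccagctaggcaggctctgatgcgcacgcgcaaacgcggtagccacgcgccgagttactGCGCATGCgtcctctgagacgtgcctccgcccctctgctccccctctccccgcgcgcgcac
Mrps10: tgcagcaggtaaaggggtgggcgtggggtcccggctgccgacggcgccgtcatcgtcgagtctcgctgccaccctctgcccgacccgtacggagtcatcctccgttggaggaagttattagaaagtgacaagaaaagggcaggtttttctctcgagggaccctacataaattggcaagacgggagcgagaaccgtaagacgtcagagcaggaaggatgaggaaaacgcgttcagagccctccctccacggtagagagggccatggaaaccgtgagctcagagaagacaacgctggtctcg

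Mrpl17, chosen for its pair of motifs after its values were seen, read 4.19, 4.79 and 5.44 on the old and 6.07, 6.05 and 6.26 on the young arrays, and fell by 0.68 with old replicate 3 alone (limma adjusted p 0.036). Its difference of -1.32 over all arrays is -0.08 with old replicates 1 and 2 raised to the receptor level. Its young mean of 6.13 is below that level on both arrays (6.30 and 6.41), so the raised values cannot show a fall there. The 25 members with the ETS motif had a median difference of -1.15, and -0.61 on old replicate 3, against -0.67 and -0.24 for the 43 without it. For YY1 the medians were -0.81 with (12 members) and -0.96 without, and -0.39 and -0.35 on old replicate 3. For the NRF1 core they were -0.63 with (8 members) and -1.01 without, and in the other order on old replicate 3, with -0.51 and -0.31. For CCAAT they were -1.17 with (26 members) and -0.67 without, also in the other order on old replicate 3, with -0.31 and -0.40. The matches are descriptions of sequence and say nothing of binding in these cells, and the differences between these medians were not tested.

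The rest of the mitochondrial translation pathway is given from lists of other genes, of which 49 were measured. By limma with all arrays 0 of 49 were called at an adjusted p under 0.05. At an unadjusted p under 0.05 by limma, 23 were lower and 0 higher, against 21.9% and 24.9% of all probe sets. The median difference was -0.76, with 37 lower and 12 higher old means. With old replicate 3 alone limma called 10 lower and 0 higher, against 5.24% and 1.76% of all probe sets. Without it limma called 29 lower and 6 higher, against 30.2% and 52.2%. On old replicates 1 and 2 only 5 and 8 of the 49 were above the receptor level. Most differences below are therefore also given with the old values raised to that level. Where a young mean is below the level of an old array, the raised value cannot show a fall there.

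Of 6 listed ribosome proteins with other names 4 were measured, and Ict1 is the older symbol of Mrpl58. Their median difference was -1.07, with -1.01, -1.42 and -0.40 on old replicates 1, 2 and 3. Ptcd3, a small subunit protein with pentatricopeptide repeats, read 5.38, 5.25 and 5.97 against 6.61, 6.65 and 6.68 (-1.11 ± 0.25, raised -0.41). Dap3, the GTP-binding protein of the small subunit, read 5.74, 4.88 and 5.79 against 6.47, 6.41 and 6.61 (-1.03 ± 0.30, raised -0.33), so both were below the young arrays on every old array. Chchd1 read 5.62, 6.57 and 7.89 against 8.06, 8.01 and 7.98 (-1.32 ± 0.54, raised -1.09). These genes were named for the smallest p of their list. All old arrays lay below all young arrays for 3 of the 4, against 22.9% of all probe sets.

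Translation factors (13 of 14 measured) had a median difference of -0.83, with -1.26, -1.02 and -0.46 on old replicates 1, 2 and 3, and 12 had a lower old mean. Guf1, the mitochondrial counterpart of elongation factor 4, read 6.01, 6.21 and 6.33 against 7.42, 7.23 and 7.35 (-1.15 ± 0.21, raised -0.98). Mtfmt, which formylates the initiator tRNA, read 5.42, 5.36 and 5.39 against 6.22, 6.30 and 6.09 (-0.82 ± 0.19, raised -0.17). The young mean of Mtfmt, 6.20, is below the receptor level of old replicates 1 and 2 (6.30 and 6.41). For both genes old replicates 1 and 2 were within the receptor level, and with old replicate 3 alone they fell by 1.00 and 0.81 (limma adjusted p 0.014 and 0.022). Gfm1, elongation factor G1, read 5.02, 4.88 and 6.82 against 7.22, 7.13 and 7.54 (-1.73 ± 0.52, raised -0.79).

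Assembly and ribosomal RNA modification genes (22 of 22 measured) were mixed, with a median of -0.15 (-0.20, -0.14 and -0.15 on old replicates 1, 2 and 3), 13 lower and 9 higher old means. Fastkd2, which takes part in assembly of the large subunit, read 4.58, 4.97 and 5.20 against 6.43, 6.20 and 6.52 (-1.47 ± 0.24, raised -0.41). Gtpbp10, a GTPase of large subunit assembly, read 4.26, 4.13 and 5.30 against 6.44, 6.36 and 6.69 (-1.93 ± 0.35, raised -0.49). Noa1, another GTPase, read 4.52, 4.72 and 6.12 against 6.57, 6.71 and 6.93 (-1.62 ± 0.44, raised -0.46). All 3, named for the smallest p of their list, were lower on every old array. All old arrays lay below all young arrays for 7 of the 22, against 22.9% of all probe sets. They lay above them for 2 of the 22, against 36.1%. Limma without old replicate 3 called 7 of the 22 lower and 6 higher, against 30.2% and 52.2% of all probe sets.

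Transcription and messenger RNA stability genes (10 of 11 measured) had a median of -1.55, and 2 had a higher old mean. The median was -2.11 on old replicate 1, -1.49 on old replicate 2 and -0.18 on old replicate 3. Tfam, which packages mitochondrial DNA and starts its transcription, read 5.29, 4.47 and 6.08 against 7.23, 7.42 and 7.74 (-2.19 ± 0.42, raised -1.20). With old replicate 3 alone Tfam fell by 1.39 (limma adjusted p 0.015). Pnpt1, a mitochondrial RNA-degrading enzyme, read 4.34, 4.84 and 5.76 against 6.72, 6.46 and 6.75 (-1.67 ± 0.38, raised -0.49). Lrpprc, which stabilises mitochondrial messenger RNAs, read 5.29, 5.20 and 6.70 against 7.38, 7.33 and 7.57 (-1.69 ± 0.42, raised -0.95). None of the 3, named for the smallest p of their list, overlapped between the groups. All old arrays lay below all young arrays for 6 of the 10, against 22.9% of all probe sets.

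**Figure D5:**
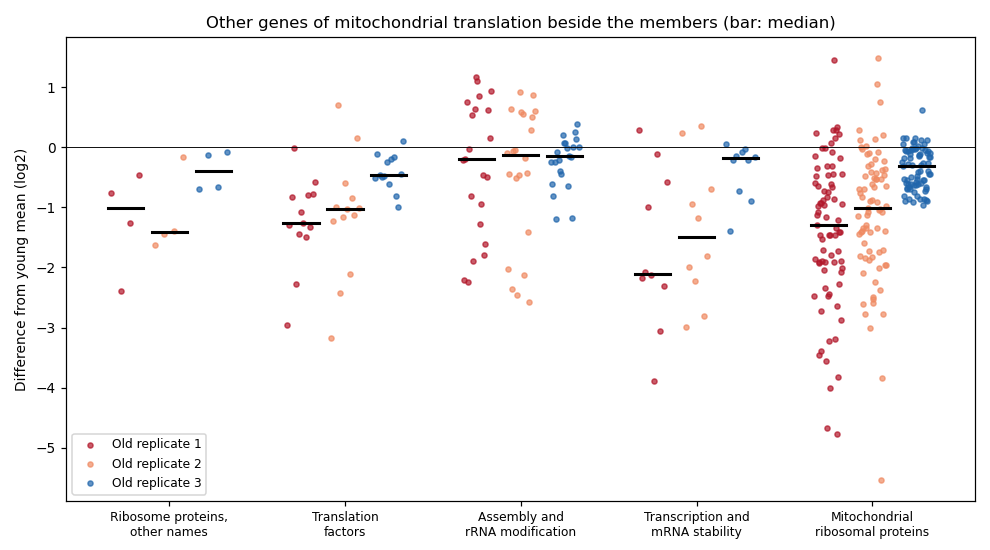
Log2 difference from the young mean for genes (points) of 4 lists of mitochondrial translation and for the 77 members, on each old array, with the median as a bar. The assembly and ribosomal RNA modification list has points on both sides of 0 and a median of -0.15 on old replicate 3, while the members' median there is -0.32.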

How the data were processed

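The members and all gene lists were chosen with earlier results of these data known. The deposited table holds 28940 probe sets with linear intensity values, which the authors summarised by RMA, a step named in the submitters' processing notes. The RMA version is not given in the sources used here. The log2 of the deposited intensity was taken. The arrays did not share 1 distribution on that scale, with interquartile ranges of 1.51 to 2.89. Genes came from the platform's annotation, in which 21789 probe sets are paired with 1 gene, and the 23410 with at least 1 gene entered the limma fit (limma 3.58.1, R 4.3.3, age as the only factor, moderated variances, 2-sided, Benjamini-Hochberg over all tested). Tables used Python 3.11.15 with pandas 2.3.3. The threshold was an adjusted p under 0.05. Arrays give no count of reads, so their number limits the precision. The fit was also run on simulated data in which old and young arrays had the same spread. In the real data the median standard deviation over the tested probe sets was 0.11 among young and 0.50 among old arrays. The simulation therefore does not show how the fit performs on old arrays that differ this much.

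Members named in the text were, per subunit, the 3 with the highest young mean, the 3 most negative and 3 most positive differences and the 2 with the smallest p. Added were the 3 lowest and 3 highest on old replicate 3, every member with a higher old mean, those within 0.5 of the young mean on old replicates 1 and 2 and above the receptor level there, a panel of 12 by role, and up to 3 genes per other list. Gene class (bacterial counterpart or mitochondria-specific) follows the current nomenclature of the proteins.

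The sample titles share replicate numbers. Deviations of same-numbered arrays from their group means correlated at 0.157, 0.15 and 0.279, above the limit of 0.1, so the numbers count as a possible pairing here. Old replicate 1 and young replicate 2 correlated at 0.153 as well, and old replicate 2 and young replicate 1 at 0.141. The data therefore do not separate replicate numbers 1 and 2, and the labels do not explain the numbers. Alternatives were the replicate block, other scalings and moderation, array weights, filters, and leaving out arrays.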

Additional observations from a re-analysis of the deposited data

How the results depend on the processing

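No member passed by limma in any fit that kept all 3 old arrays with equal weight, nor in those without old replicate 1 or 2 or any young array. Leaving out 1 array gave 0 to 61 members called and 0 to 35 of the other listed genes, with the 61 and 35 without old replicate 3. Estimated array weights gave 63 members (60 lower, 3 higher) and 40 other genes, where 85.4% of all probe sets were called, and old replicate 3 as the only old array 23 and 10. With the replicate block, the possible pairing, 0 members and 0 other genes were called, and 42 members had an unadjusted p under 0.05 against 46 without it, so the block changed no call. The median difference ranged from -1.27 to -0.67 in the large and -0.96 to -0.75 in the small subunit when 1 array was left out. With old replicate 3 alone it was -0.36 in the large subunit. The median of old replicate 3 was -0.45 with centred arrays and -0.15 after quantile normalization, where all genes had -0.09 and -0.01. Signs of small differences turned. Centring gave -0.33 for Mrpl55, -0.28 for Mrpl10, -0.25 for Mrpl2 and -0.16 for Mrps24. Quantile normalization gave 0.078 for Mrps12, 0.58 for Mrpl14, 0.63 for Mrpl12, 0.91 for Mrpl28, 0.022 for Mrpl44 and 0.50 for Mrps18b. Old replicate 3 alone gave -0.15 for Mrpl55, -0.18 for Mrpl10 and 0.15 for Mrpl14, and array weights 0.0026 for Mrpl28. With 1 array left out, Mrpl55 ranged from -0.043 to 0.10, Mrpl10 from -0.026 to 0.18, Mrpl14 from -0.34 to 0.059 and Mrpl28 from -0.099 to 0.0038. The cause was not tested. Signal within the receptor level on old replicates 1 and 2 limits 47 members to bounds there.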
